A study of Mus musculus with 3 samples.

Results

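The 7 genes described here, Malat1, Neat1, Kcnq1ot1, Tug1, Meg3, Rian and Mirg, are long noncoding RNAs of the nucleus, chosen by symbol from the 32285 genes listed for each library. Each symbol was found once. Their UMI counts were summed over the cells of 3 single-cell libraries of E14 mouse embryonic stem cells, a 129/Ola line grown in serum with LIF: a control kept in ethanol for 6 h, cells given cycloheximide for 3 h and cells given cycloheximide for 6 h. Cycloheximide, which stops the elongation step of translation, was used at 250 µg/mL in 0.007% ethanol from 24 h after seeding. All cells came from the same line, were frozen before capture, and carried no transgene or deletion that the labels name. The 3 h library has no ethanol control of its own duration. Each group is 1 library, so a difference between libraries has no replicate check, no p-value is given, and the intervals printed with values cover counting error only.

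A long noncoding RNA is transcribed and mostly processed like a messenger RNA but encodes no protein. Malat1 gathers in nuclear speckles, which store splicing factors, and the long form of its neighbour Neat1 is the scaffold of paraspeckles, bodies that hold RNA-binding proteins. Kcnq1ot1 is made from the paternal chromosome and silences imprinted genes around it, while Meg3, Rian and Mirg are made from the maternal copy of the imprinted Dlk1-Meg3 domain, the latter pair being hosts of small nucleolar RNAs and microRNAs. Tug1 is a widely made RNA found in both nucleus and cytoplasm.

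The libraries held 2187 cells (control), 1739 cells (3 h) and 2554 cells (6 h), a cell being a barcode with at least 15000 UMIs of which 1% to 20% came from mitochondrially encoded genes. These cells carried 111447486, 106842407 and 140321458 UMIs, with medians of 43160, 51726 and 46200 UMIs per cell, and pairs of libraries shared 1 to 3 cell barcodes. Mitochondrially encoded genes gave 4.57%, 3.51% and 2.94% of the summed UMIs, in the order control, 3 h, 6 h. Embryonic stem cell markers summed to 6718, 7846 and 7173 UMIs scaled to counts per 1000000 (CPM), with all 8 detected in every library, including Pou5f1 at 533, 579 and 465 CPM. Dppa5a alone gave 4771, 5327 and 5475 CPM of these sums. At 3 h all 8 were higher than in the control. At 6 h 5 were lower than in the control, among them Zfp42 (455 to 240 CPM) and Sox2 (213 to 146 CPM). The other 3 were higher, among them Klf2 (196 to 332 CPM). The fibroblast markers summed to 2.24 to 3.09 CPM, with Col3a1 and Postn at 0 in all 3 libraries. The 5 primitive endoderm markers summed to 7.44 to 12.1 CPM and the markers of 2-cell-like cells, also 5, to 0.029 to 0.60 CPM, with Tcstv1 at 0 throughout. The 4 mesoderm markers summed to 4.05, 4.48 and 6.81 CPM. The 4 neural markers summed to 81.8, 58.7 and 39.4 CPM. Of these Tubb3 went from 65.3 to 35.1 and 18.6 CPM, whereas Nes had 7.15, 9.13 and 11.03 CPM, Pax6 2.55, 4.18 and 3.10 CPM and Sox1 6.85, 10.2 and 6.61 CPM. Trophoblast markers went from 8.16 to 17.4 and 19.2 CPM, mostly Tfap2c, with Elf5 at 0; the part of these shifts in the results below was not tested.

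In the GENCODE M21 annotation of GRCm38, Malat1 (ENSMUSG00000092341) lies on chromosome 19 at 5795690 to 5802672 and Neat1 (ENSMUSG00000092274) at 5824708 to 5845478, both on the minus strand and 22.0 kb apart. Kcnq1ot1 (ENSMUSG00000101609), annotated as antisense, covers 143203458 to 143296549 on the minus strand of chromosome 7, overlapping the oppositely oriented Kcnq1. Tug1 (ENSMUSG00000056579) lies on chromosome 11 at 3639785 to 3649673 on the minus strand and overlaps Morc2a on the other strand. The remaining 3 follow each other on the plus strand of chromosome 12: Meg3 (ENSMUSG00000021268) at 109541001 to 109571726, Rian (ENSMUSG00000097451) at 109603940 to 109661716 and Mirg (ENSMUSG00000097391) at 109729764 to 109749460. The start of Rian is 62.9 kb and that of Mirg 189 kb downstream of the start of Meg3.

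The assay primes on runs of A and counts the 3′ end of an RNA, and the annotated 3′ ends are shown because they bear on what could be counted. Each line gives the last 60 bases of an annotated transcript, 5′ to 3′, with the polyadenylation signal AATAAA in capitals.
Malat1: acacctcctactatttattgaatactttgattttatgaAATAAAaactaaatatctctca
Neat1, short form: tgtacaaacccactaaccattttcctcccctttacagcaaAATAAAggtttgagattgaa
Neat1, long form: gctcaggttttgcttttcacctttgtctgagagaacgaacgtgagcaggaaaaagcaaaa
Kcnq1ot1: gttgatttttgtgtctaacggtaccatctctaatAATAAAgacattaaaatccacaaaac
Tug1: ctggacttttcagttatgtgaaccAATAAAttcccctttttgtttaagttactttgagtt
Meg3: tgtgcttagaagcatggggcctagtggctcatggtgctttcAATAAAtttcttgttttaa
Rian: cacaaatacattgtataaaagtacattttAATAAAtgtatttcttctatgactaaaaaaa
Mirg: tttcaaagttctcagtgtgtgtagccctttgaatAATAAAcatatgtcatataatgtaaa
The long form of Neat1 alone among these 8 lacks AATAAA in this window. Over 134529 annotated transcripts, 28.5% hold it. Kcnq1ot1, an unspliced transcript of 93092 bases, holds 10 runs of at least 10 A, the longest of 41, internal stretches of the kind that oligo(dT) can prime on, whereas the transcripts shown for Neat1, Tug1, Meg3, Rian and Mirg hold none of that length.

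Malat1 and the long form of Neat1 are known to end not in a poly(A) tail but at a genomically encoded A-rich tract, where RNase P cuts the precursor and a triple helix of U-rich and A-rich strands protects the end. The 100 bases that end with this tract (at least 5 A, then GCAAAA, in capitals) are shown because the pair shares the element while Neat1 was at least 2-fold lower with cycloheximide and Malat1 was not.
Malat1: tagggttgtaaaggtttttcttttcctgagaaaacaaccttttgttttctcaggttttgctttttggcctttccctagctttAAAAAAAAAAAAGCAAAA
Neat1, long form: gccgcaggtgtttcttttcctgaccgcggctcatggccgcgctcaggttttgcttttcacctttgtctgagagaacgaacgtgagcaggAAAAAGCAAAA
In Malat1 the tract ends 292 bases before the annotated end (chr19:5795982-5796081, minus strand), and in the long form of Neat1 it is the annotated end (chr19:5824708-5824807, minus strand). Apart from the tract, the windows share 2 stretches of at least 10 bases, both rich in T (U in the RNA): tttcttttcctga, 13 bases, and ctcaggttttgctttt, 16 bases. Counts were given per gene, so the short and long forms of Neat1 cannot be told apart.

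Neat1, the paraspeckle scaffold, had 41.8 CPM in the control (95% Poisson interval 40.6 to 43.0, 4656 UMIs), 15.6 CPM at 3 h (14.8 to 16.4, 1665 UMIs) and 11.3 CPM at 6 h (10.7 to 11.8, 1579 UMIs). It was lower in both cycloheximide libraries, and no intervals overlapped. The log2 ratio to the control was -1.42 at 3 h (exact conditional binomial interval -1.504 to -1.34) and -1.89 at 6 h (-1.98 to -1.81), 2.68-fold and 3.71-fold lower. Among the 7608 genes that averaged 10 CPM or more over the 3 libraries, 11 had a lower ratio than Neat1 at 3 h and 31 had a lower ratio at 6 h. Most of the difference was present at 3 h: from 3 h to 6 h the log2 ratio was -0.47 (-0.57 to -0.37).

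Malat1, the speckle RNA that lies beside Neat1, had 2581 CPM in the control (2571 to 2590, 287599 UMIs), 2716 CPM at 3 h (2706 to 2726, 290165 UMIs) and 3121 CPM at 6 h (3112 to 3130, 437948 UMIs). It made up 0.258%, 0.272% and 0.312% of all UMIs in cells. Its log2 ratio to the control was 0.074 at 3 h and 0.27 at 6 h on the CPM scale, but -0.10 and -0.012 with the TMM factors of edgeR, so its direction depends on the scaling. Relative to the median log2 ratio of all genes, which no scaling changes, Malat1 stood at -0.038 at 3 h and 0.11 at 6 h. It was above 45.2% of genes at 3 h and 58.6% at 6 h, near the middle, while its neighbour Neat1 was above 0.145% and 0.407%.

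Kcnq1ot1, the silencer of its imprinted neighbourhood, had 226 CPM in the control (223 to 229, 25210 UMIs), 187 CPM at 3 h (184 to 189, 19940 UMIs) and 213 CPM at 6 h (210.2 to 215, 29838 UMIs). Among the 3 libraries the 3 h library had the least, and the 6 h library lay between it and the control. The log2 ratio to the control at 3 h was -0.28 (-0.30 to -0.25) and that at 6 h -0.089 (-0.11 to -0.065), and from 3 h to 6 h it was 0.19. With UMIs per cell in place of CPM the 6 h ratio was 0.019, so no direction is given for 6 h, and in cells of 15000 to 30000 UMIs the 3 h ratio was 0.46.

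Tug1 had 21.2 CPM in the control (20.4 to 22.1, 2365 UMIs), 32.9 CPM at 3 h (31.8 to 34.0, 3516 UMIs) and 33.4 CPM at 6 h (32.4 to 34.4, 4684 UMIs). Both cycloheximide libraries were above the control and their intervals overlapped each other. The log2 ratio to the control at 3 h was 0.63 (0.56 to 0.71) and that at 6 h 0.65 (0.58 to 0.73). Between 3 h and 6 h the ratio was 0.021, with an interval of -0.043 to 0.084 that spans 0, and no direction is given. Tug1 stood 0.52 above the all-gene median at 3 h and 0.49 above it at 6 h.

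The 3 maternally expressed RNAs of the Dlk1-Meg3 domain were all lower at 3 h and lower again at 6 h. Meg3, the first transcript of the domain, had 238 CPM in the control (235 to 240.4, 26470 UMIs), 159.8 CPM at 3 h (157 to 162, 17071 UMIs) and 102 CPM at 6 h (100.5 to 103.8, 14329 UMIs). Rian, which hosts small nucleolar RNAs, had 85.3 CPM (83.6 to 87.1, 9511 UMIs), then 53.5 CPM (52.1 to 54.9, 5715 UMIs) and 29.9 CPM (29.0 to 30.8, 4198 UMIs). Mirg, which hosts a large microRNA cluster, had 13.7 CPM (13.0 to 14.4, 1527 UMIs), then 9.57 CPM (8.99 to 10.2, 1022 UMIs) and 3.92 CPM (3.599 to 4.26, 550 UMIs). For each of the 3 the order was control, 3 h, 6 h, with no overlap of intervals.

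At 3 h the log2 ratios to the control did not follow the order along the domain, being -0.57 for Meg3 (-0.60 to -0.54), -0.67 for Rian (-0.72 to -0.63) and -0.52 for Mirg (-0.63 to -0.40). At 6 h they were -1.22 (-1.25 to -1.19), -1.51 (-1.57 to -1.46) and -1.80 (-1.95 to -1.66), lower from Meg3 to Rian to Mirg, and the 3 intervals did not overlap. Another RNA of the same strand did not follow that order: B830012L14Rik, a long noncoding RNA annotated between Rian and Mirg, had 12.9, 5.42 and 2.24 CPM and a ratio of -2.53 at 6 h, lower than that of the more distal Mirg. Its mean of 6.86 CPM is below the floor of 10 CPM used here for calls, as is that of Mirg. From 3 h to 6 h the ratios were -0.65, -0.84 and -1.29 in the same order. In fold, Meg3, Rian and Mirg were 2.33, 2.85 and 3.49 times lower at 6 h than in the control. In cells of 15000 to 30000 UMIs the 3 h ratios were nearer 0, with -0.12, -0.32 and -0.032. The order of the 3 members at 6 h is a description of these libraries, and it was the same in cells of 15000 to 30000, 30000 to 60000 and 60000 or more UMIs.

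**Figure D1:**
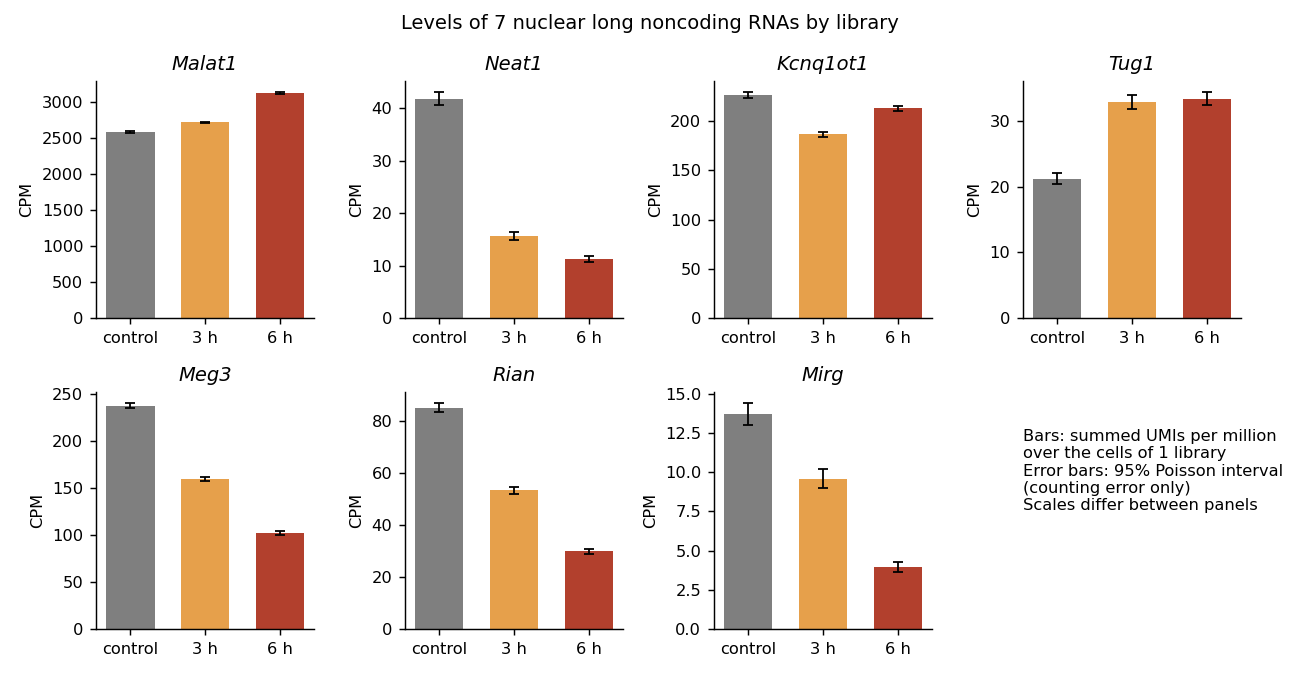
Level of each RNA in each library, in CPM summed over the cells of that library (bars) with 95% Poisson intervals for counting error (error bars); panels have their own scales. Neat1, Meg3, Rian and Mirg are highest in the control and lowest at 6 h, and Tug1 is about equal at 3 h (32.9 CPM) and 6 h (33.4 CPM) and lower in the control (21.2 CPM); the direction of Malat1 depends on the scaling, as does that of Kcnq1ot1 at 6 h.

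The members were then read against all genes. At 6 h 4 of the 7 were at least 2-fold lower than in the control (Neat1, Mirg, Rian and Meg3), 3 of them among the 6 members above the 10 CPM floor, since Mirg had a mean of 9.06 CPM. Of all 7608 genes above the floor 2.41% were at least 2-fold lower and 8.65% at least 2-fold higher, and no member was 2-fold higher. At 3 h Neat1 alone was at least 2-fold lower, against 0.513% of all genes lower and 4.32% higher. Between 3 h and 6 h no member above the floor passed 2-fold, and of all genes above it 0.657% did so downward and 0.145% upward; Mirg, below the floor, had a ratio of -1.29. The median log2 ratio of the 7 was -0.52 at 3 h and -1.22 at 6 h, beside 0.11 and 0.17 for all genes, and -0.47 beside 0.044 for 6 h against 3 h. The member at the median was Mirg at 3 h and Meg3 at 6 h. As Meg3, Rian and Mirg lie in the same domain, these counts and medians do not rest on 7 separate loci. The members that were at least 2-fold lower at 6 h stayed so under all 11 other settings tried.

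**Figure D2:**
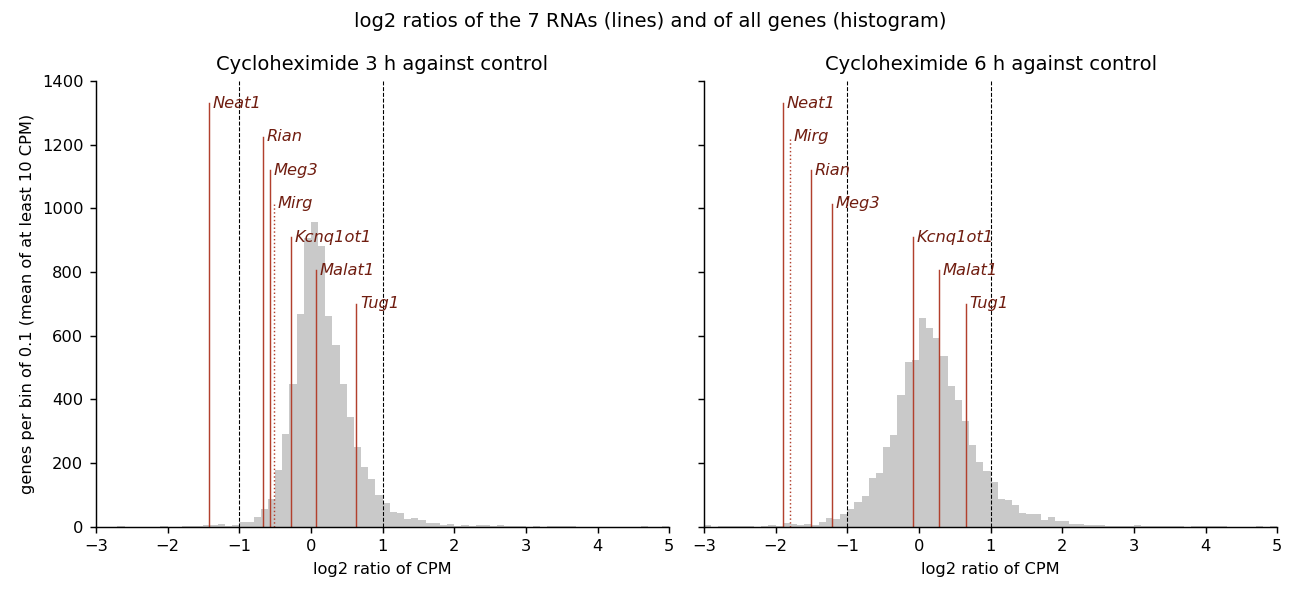
Histograms of the log2 ratio of CPM to the control over the 7608 genes averaging 10 CPM or more, in the 3 h and 6 h libraries, with each member as a line (dotted for Mirg, which is below that floor) and 2-fold marked by dashed lines. Neat1 stands in the lower tail at both times (-1.42 and -1.89) and Rian and Meg3 join it at 6 h (-1.51 and -1.22), whereas Malat1, Kcnq1ot1 and Tug1 lie within 2-fold.

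These CPM ratios rest on the assumption that the UMI total is a fair scale. TMM factors moved the median ratio of all genes by -0.29 at 6 h and -0.17 at 3 h, and the share of genes above 0 from 64.1% to 40.5% at 6 h and from 64.1% to 42.6% at 3 h. Dividing by the number of cells moved the median by 0.11 at 6 h and 0.27 at 3 h, and the share above 0 to 71.6% and 89.1%. For 6 h against 3 h the share above 0 was 57.7%, and 38.1% with TMM and 30.4% per cell. Relative to the all-gene median the 6 h ratios were -2.06 for Neat1, -1.97 for Mirg, -1.68 for Rian, -1.38 for Meg3, -0.26 for Kcnq1ot1 and 0.49 for Tug1.

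The share of cells in which an RNA was seen was compared after each cell was thinned to 15000 UMIs. Malat1 was seen in 99.9% of control cells, 100% of 3 h cells and 99.96% of 6 h cells. Neat1 was seen in 42.2% of control cells (Clopper-Pearson 95% interval 40.1% to 44.3%), in 20.01% of 3 h cells (18.2% to 22.0%) and in 14.6% of 6 h cells (13.3% to 16.1%). Meg3 went from 89.2% to 83.0% and 70.0%, Rian from 61.8% to 49.0% and 32.8%, and Mirg from 17.1% to 12.8% and 5.29%. Tug1 went the other way, from 27.7% in the control to 41.2% at 3 h and 38.8% at 6 h, and Kcnq1ot1 was seen in 85.7%, 83.8% and 87.7% of cells.

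Without thinning, the shares for Neat1 were 72.4%, 47.6% and 37.5%, those for Meg3 96.9%, 95.7% and 91.5%, those for Rian 86.3%, 83.0% and 68.8%, and those for Mirg 42.6%, 37.0% and 17.5%, in the same order of libraries. Unthinned Tug1 was seen in 60.1%, 79.8% and 74.9% of cells and Kcnq1ot1 in 95.8%, 97.5% and 97.5%. Barcodes of 10 to 100 UMIs, which hold free RNA at a median of 52, 54 and 68 UMIs, carried a Malat1 UMI in 8.76%, 10.8% and 11.998% of cases. Their shares were 0.0495% to 1.08% for the other 6 RNAs.

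**Figure D3:**
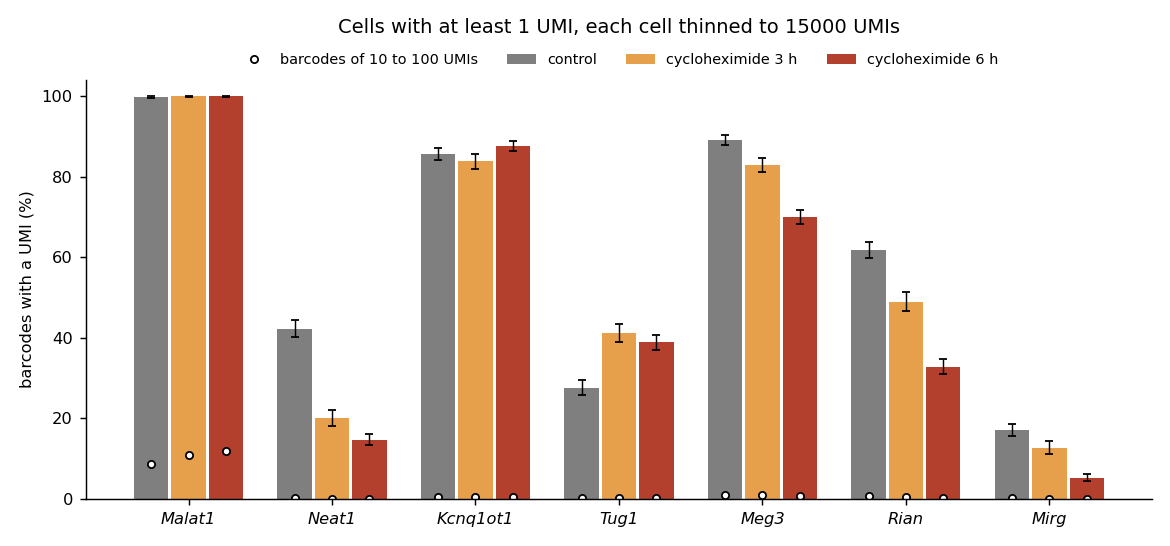
Percentage of cells with at least 1 UMI of each RNA after thinning to 15000 UMIs per cell, by library, with 95% Clopper-Pearson intervals; open circles give the percentage among barcodes of 10 to 100 UMIs. The shares for Neat1, Meg3, Rian and Mirg are highest in the control and lowest at 6 h, and those for Tug1 are higher in both cycloheximide libraries.

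Free RNA held the members in other proportions than cells did. In the free RNA of the control, Kcnq1ot1 had 88.4 CPM, 2.56 times lower than in cells, and Malat1 1745 CPM, 1.48 times lower. Rian, with 127 CPM, and Mirg, with 21.7 CPM, were higher in free RNA than in cells. So were Neat1, with 55.3 CPM, and Tug1, with 29.5 CPM. Over all genes above the floor, the control's log2 ratio of cells to free RNA had 5th and 95th percentiles of -0.614 and 0.624. Rian (-0.577), Neat1 (-0.405), Tug1 (-0.473), Meg3 (0.210) and Malat1 (0.564) lay inside that range. Kcnq1ot1 (1.36) lay above it and Mirg (-0.662, on 78 free UMIs) just below it. In the 6 h library the free RNA held 9.18 CPM of Neat1, 122 CPM of Meg3, 52.0 CPM of Rian and 7.40 CPM of Mirg, against 55.3, 205.4, 127 and 21.7 CPM in the control's free RNA. All 4 were thus lower at 6 h in the free RNA too.

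Cell-to-cell variation was measured as the excess squared coefficient of variation, the variance beyond Poisson counting divided by the squared mean, over cells thinned to 15000 UMIs. The median over genes with at least 0.2 UMIs per cell was 0.0787 in the control (6381 genes), 0.0794 at 3 h and 0.0848 at 6 h. Malat1 had 0.547, 0.520 and 0.483, and Kcnq1ot1 had 0.506, 0.513 and 0.446. Meg3 had 0.437, 0.376 and 0.459, and Rian 0.552, 0.690 and 0.674. Thinned to 30000 UMIs, Rian had 0.465, 0.468 and 0.443, so its higher values with cycloheximide were not kept at that depth. Repeated thinnings of the 6 h cells to 15000 UMIs moved Rian between 0.404 and 0.731. Tug1 was closer to the other genes with 0.208, 0.292 and 0.187, and 5 further random thinnings of the control moved its value between 0.125 and 0.351.

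Neat1 had an excess squared coefficient of variation of 0.917 in the control and 1.32 at 3 h, above that of 98.5% and 99.0% of genes. Repeated thinnings gave 0.772 to 0.934 in the control and 1.19 to 2.01 at 3 h, ranges that cover the thinning of the same cells and not the sampling of cells or libraries. At 6 h Neat1 was below 0.2 UMIs per cell, as was Mirg in every library, and no value is given for them there. In the control the 10% of cells with the most Neat1 UMIs held 44.4% of them, and no thinned cell held more than 10. The same share was 47.5% for Tug1 and 63.8% for Mirg, so it does not set Neat1 apart from other members of low level. Malat1, Kcnq1ot1, Meg3 and Rian, which had more UMIs, lay between 26.3% and 35.7%.

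Malat1 could be followed cell by cell because nearly every cell had many copies. The median was 33 UMIs of 15000 in the control (5th to 95th percentile 8 to 91), 34 in the 3 h library (10 to 100) and 40 in the 6 h library (11 to 110). The whole distribution lay to the right at 6 h on this scale, while that of Meg3 lay to the left, with medians of 3, 2 and 1 UMIs and 95th percentiles of 9, 6 and 5. Kcnq1ot1 had medians of 3, 2 and 3 UMIs. Rian had a median of 1 UMI in the control and 0 in both cycloheximide libraries.

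**Figure D4:**
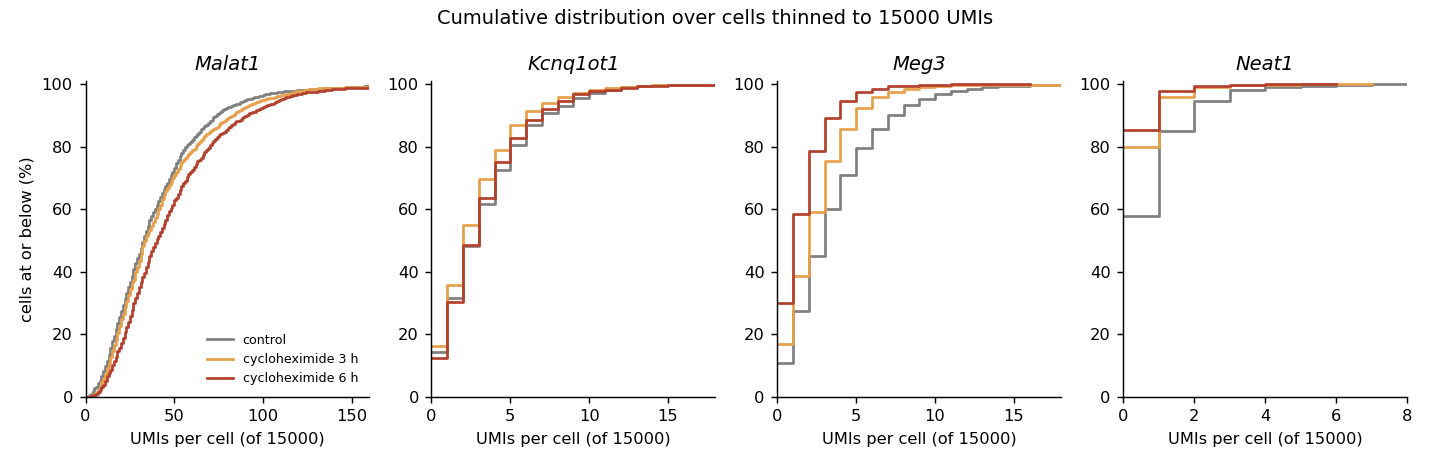
Cumulative percentage of cells at or below each number of UMIs per cell, after thinning to 15000 UMIs, for Malat1, Kcnq1ot1, Meg3 and Neat1, with 1 line per library. The Meg3 and Neat1 lines lie higher, which means fewer UMIs per cell, at 3 h and highest at 6 h, and the Malat1 line at 6 h lies to the right of the control (medians of 40 and 33 UMIs of 15000, a direction that TMM scaling of the sums does not keep).

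Across cells of a library the members were related to different degrees, given here as Pearson r of log2(1 + UMIs) over thinned cells, which share a library. Meg3 and Rian had r of 0.41 in the control (2187 cells), 0.29 at 3 h (1739 cells) and 0.19 at 6 h (2554 cells). In the control, Rian was seen in 76.3% of the 874 cells above the median of Meg3 and in 52.1% of the other 1313. Mirg was seen in 22.0% and 13.8% of the same cells. Malat1 and Kcnq1ot1 had r of 0.39, 0.37 and 0.41, about the same in all 3 libraries, whereas the neighbours Malat1 and Neat1 had 0.20, 0.11 and 0.15. Lower means leave more counting noise, which lowers r, so the smaller values of Meg3 and Rian with cycloheximide cannot be told apart from their lower counts.

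Among 3786 genes with at least 0.5 UMIs per thinned control cell, the gene whose pattern over control cells was most like that of Meg3 was Rian, and the reverse (r = 0.41). The next after Rian was Malat1, at 0.17. For Malat1 the highest were Hnrnpa3 (0.49), Nedd4 (0.42), Kcnq1ot1 (0.39), Hnrnpu (0.39) and Top2a (0.38), and for Kcnq1ot1 they were Malat1, Hnrnpa3 (0.33), Hnrnpu (0.32), Ankrd11 (0.32) and L1td1 (0.30). For Neat1 the highest were weak: Malat1 (0.20), mt-Co3 (0.19), mt-Co2 (0.17), Fos (0.17) and mt-Atp6 (0.17).

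The promoter of the first listed start of Meg3 is shown because Meg3 and the RNAs downstream of it were lower together. It covers 250 bases before to 50 bases after the start (RefSeq, GRCm38.p6, chr12:109540746-109541045, plus strand). Capitals mark matches, on either strand, to the cyclic AMP response element TGACGTCA, the TATA box TATAAA and the CCAAT box.
Meg3: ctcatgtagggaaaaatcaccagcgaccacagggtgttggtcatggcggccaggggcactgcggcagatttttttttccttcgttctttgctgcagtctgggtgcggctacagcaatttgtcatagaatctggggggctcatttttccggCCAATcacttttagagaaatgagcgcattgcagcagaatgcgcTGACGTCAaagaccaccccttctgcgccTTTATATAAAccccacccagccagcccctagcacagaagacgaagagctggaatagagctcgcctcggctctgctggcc
The response element begins 57 bases and the CCAAT box 100 bases before the start. The pair of TATAAA matches, 1 on each strand, overlaps in a stretch that begins 29 bases before it. Over 32851 promoter windows of the same length, 1.79% hold TGACGTCA, 13.6% TATAAA and 37.4% CCAAT. RefSeq and GENCODE place some starts apart, and those of Tug1 and Mirg in RefSeq lie inside the GENCODE gene. The table lists a further start of Meg3, at chr12:109545148-109545447, whose window holds none of the 3 motifs. The start of Neat1 was not analysed here. The windows of Rian, Malat1 and Tug1 hold none of the 3 motifs, that of Mirg holds CCAAT, and that of Kcnq1ot1 holds CCAAT 3 times. These are matches of letters and not shown sites of binding.

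Meg3, Rian and Mirg span 3, 6 and 26 mature microRNAs of the RefSeq table, 35 in all with 34 different seeds. These microRNAs are not measured by this assay. A few are shown with the seed, bases 2 to 8, in capitals: 1 each from Meg3 and Rian, and the pair of Mirg that shares a seed.
miR-770-5p, in Meg3: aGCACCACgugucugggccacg
miR-370-3p, in Rian: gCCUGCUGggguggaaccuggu
miR-453, in Mirg: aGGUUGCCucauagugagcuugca
miR-496a-5p, in Mirg: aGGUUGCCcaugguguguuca

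The antisense gene Frmd8os, 0.145 kb from Neat1, had 0.386, 0.384 and 0.534 CPM. Frmd8, at 4.22 kb the closest gene above the floor of 10 CPM, had 15.6, 15.9 and 16.8 CPM. Within 100 kb of Neat1, 6 protein-coding genes and Malat1 passed that floor, and none of these was 2-fold higher or lower at 6 h. Of all genes above the floor 8.65% were higher and 2.41% lower, so with so few genes this count does not set the neighbours apart. Morc2a, which overlaps Tug1 on the other strand, had a ratio of -0.090 at 6 h. Within 100 kb of Meg3 the 1 gene to pass was Rian, and no gene within 100 kb of Kcnq1ot1 passed.

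Of the other genes of the Dlk1-Meg3 domain and its borders, 3 of 8 passed the floor, and their log2 ratios at 6 h were -0.34 for Wars, -0.29 for Yy1 and -0.12 for Ppp2r5c, all less far from 0 than those of Meg3, Rian and Mirg. The paternally expressed Dlk1, which encodes a transmembrane inhibitor of Notch signalling, had 2.70, 1.63 and 1.81 CPM. The rest of that list, also below the floor, went both ways. Dio3 had 0.781, 1.98 and 1.72 CPM, at least 2-fold higher at both times, and Wdr25 had 3.55, 4.44 and 5.69 CPM. Begain had 1.28, 0.852 and 0.862 CPM, and Rtl1 had 6, 5 and 3 UMIs. In the domain of Kcnq1ot1, 6 of 15 genes passed, 1 at least 2-fold higher at 6 h (Tssc4, 32.2 to 71.2 CPM) and none lower. The shares over all genes above the floor were 8.65% higher and 2.41% lower, and so few genes cannot be set apart from them. Below the floor, Kcnq1 (20, 27 and 58 UMIs), Ascl2 (326, 336 and 878 UMIs) and Trpm5 (2, 4 and 6 UMIs) were also at least 2-fold higher. Without a floor 28.6% of all genes were so at 6 h. Cd81 had the lowest ratio, -0.78, and the growth inhibitor Cdkn1c, a known target of silencing by Kcnq1ot1, had 145.8, 147 and 177 CPM. Phlda2, another imprinted gene there, had 271, 217 and 175 CPM.

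The protein partners of these RNAs were read beside the 2.41% of all genes lower and 8.65% higher at 6 h and the all-gene median of 0.17, and with so few genes a list their counts do not set them apart. Of 14 paraspeckle proteins, 1 was at least 2-fold lower and none higher (median log2 ratio -0.057): Rbm14, needed for paraspeckle assembly, had 62.9, 42.4 and 28.5 CPM. Hnrnph3 had the highest ratio (0.80), and the abundant Hnrnpk and Nudt21 had -0.30 and -0.038. Of 16 nuclear speckle proteins none passed in either direction (median 0.13), with Srsf3 highest at 0.55 and Srsf5 lowest at -0.46.

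Of 19 genes of the nuclear exosome and its adaptors above the floor, which degrade nuclear RNA, 1 was at least 2-fold higher and none lower (median 0.22). That gene was Zcchc8, of the nuclear exosome targeting complex, with 46.8, 80.9 and 94.1 CPM, and the lowest was Zfc3h1 (-0.96), of the poly(A) exosome targeting connection. Of 16 genes of RNase P, RNase Z and m6A marking, 1 was at least 2-fold higher and none lower (median 0.41): Ythdc1, a nuclear reader of m6A, had 167, 282 and 372 CPM. Pop1, a subunit of RNase P, had the lowest ratio (-0.56). At 3 h a single gene of these 4 lists had passed 2-fold, Rpp38, also a subunit of RNase P, with 25.5, 51.6 and 40.1 CPM; it is named after its values were seen.

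Other noncoding RNAs were read in the same way, beside the 8.65% of all genes above the floor that were at least 2-fold higher at 6 h. Of 22 further long noncoding RNAs described as nuclear, 20 were found and 7 passed the floor, 1 of them at least 2-fold higher at 6 h and none lower (median 0.036). With 7 genes these counts do not set the list apart from all genes. Pvt1, which lies beside Myc, had 17.0, 42.8 and 51.9 CPM, and Lncenc1 had the lowest ratio (-0.82). Below the floor 3 more were at least 2-fold lower at 6 h. Of all genes 7.002% were so without a floor and 2.41% above it, so low counts pass 2-fold more often. In this list, levels at least 2-fold lower were seen only below the floor. Mir17hg, the host of a microRNA cluster, had 11.3, 2.79 and 1.93 CPM and a log2 ratio of -2.55, lower than that of any of the 7. Rmrp, the RNA of RNase MRP, had 11.1, 6.50 and 4.08 CPM (-1.44), and Miat had 43, 6 and 16 UMIs (-1.73). Rmst, higher by 1.34, had 5, 8 and 17 UMIs. Of 12 spliced noncoding RNAs of the cytoplasm, many of them hosts of small nucleolar RNAs and known targets of translation-coupled decay, 9 were at least 2-fold higher at 6 h and 1, Snhg3, at least 2-fold lower, the median being 2.90 (6 h) and 2.46 (3 h). Snhg15, with the highest ratio, went from 52.2 CPM to 618 and 933 CPM. Among the 7 nuclear RNAs the highest ratio at 6 h was that of Tug1, 0.65.

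The ratios were also taken within cells of like UMI count. At 6 h they kept their sides in cells of 15000 to 30000, 30000 to 60000 and 60000 or more UMIs for 6 of the 7, with Neat1 between -1.95 and -1.73, Meg3 between -1.27 and -1.04, Rian between -1.59 and -1.20, Mirg between -1.92 and -1.69 and Tug1 between 0.60 and 0.74. Kcnq1ot1 was the exception, with 0.28 in the cells of 15000 to 30000 UMIs and -0.089 and -0.14 in the deeper ones. At 3 h the cells of 15000 to 30000 UMIs, 193 in that library and 311 in the control, stood apart. In them the ratio was 0.46 for Kcnq1ot1, against -0.32 and -0.33 in the deeper cells, and it was -0.12 for Meg3, -0.32 for Rian and -0.032 for Mirg, against -0.62, -0.71 and -0.58 in the cells of 30000 to 60000 UMIs. Malat1 had 0.35, -0.013 and 0.17 in the 3 ranges at 3 h. Over the thinned cells of each library, r of the 7 RNAs with the logarithm of the cell's UMI total lay between -0.082 and 0.094. With the cell's percentage of mitochondrially encoded UMIs, r lay between -0.010 and 0.185. It was highest for Neat1 (0.185) and Malat1 (0.160), both in the control.

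**Figure D5:**
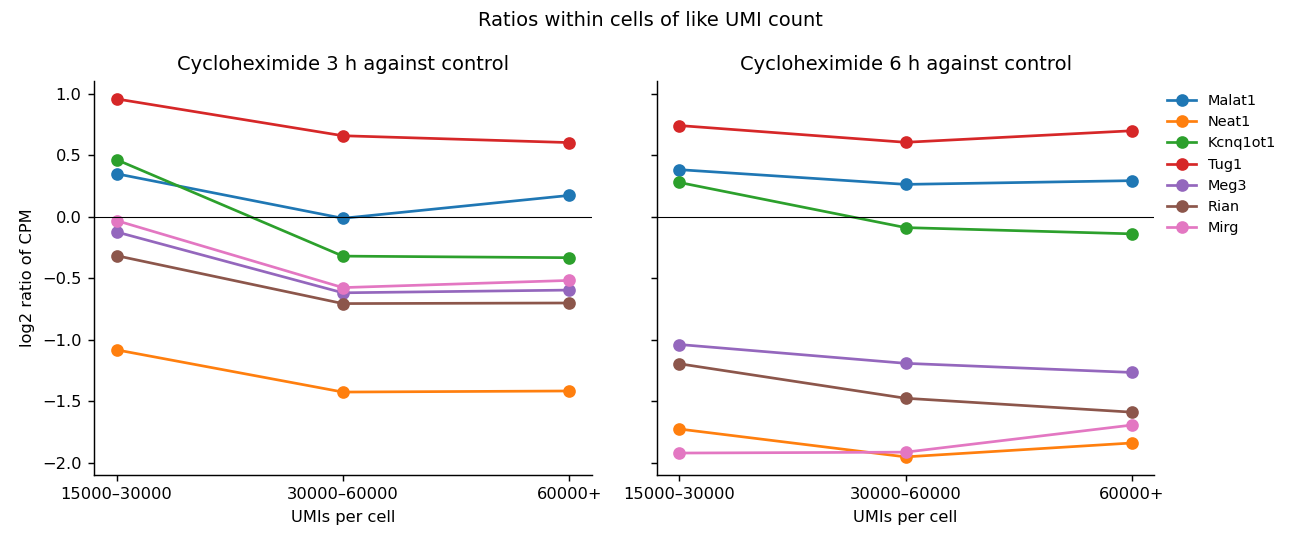
log2 ratio of CPM to the control for each RNA within cells of 15000 to 30000, 30000 to 60000 and 60000 or more UMIs, at 3 h and 6 h. Neat1, Meg3, Rian and Mirg lie below -1 in each range at 6 h, and at 3 h Kcnq1ot1 changes side, from 0.46 in the cells with fewest UMIs to -0.33 in those with most.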

How the data were processed

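Single cells were captured with 10x Genomics 3′ v3 chemistry and read on a NextSeq 2000 instrument, per the labels' protocols. What the authors deposited are unnormalized UMI counts for each gene in each barcode, made with Cell Ranger 4.0.0 against mm10, per the submitters' processing notes; 6794880 barcodes were listed per library and no cells were called. Barcodes with at least 15000 UMIs and 1% to 20% mitochondrially encoded UMIs were kept as cells, their counts summed per library and scaled to CPM, and log2 ratios taken with 0.5 counts added, with exact conditional binomial intervals. A ratio was read as past 2-fold among genes averaging 10 CPM or more over the libraries. Cells were thinned without replacement to 15000 UMIs for shares and variation; as every cell had at least that many, none was left out. No doublet caller was run, and leaving out cells above 2 times the median was tried instead. Each group has 1 library, so conditions were compared by size and not by a test. The 7 genes and the other gene lists were chosen with earlier results of these data known. Named from each list were the highest and lowest ratio at 6 h and up to 2 abundant genes. Dlk1, Dio3, Wdr25, Begain, Rtl1, Kcnq1, Ascl2, Trpm5, Cdkn1c, B830012L14Rik, Mir17hg, Rmrp, Miat, Rmst and the named marker genes fall outside that rule. All of these were chosen after their values were seen. Norad was matched under an older symbol, and 2 listed RNAs were not matched. Ratios, intervals and thinning were tested on simulated data. Python 3.11.15, numpy 2.4.6, scipy 1.17.1, pandas 2.3.3, matplotlib 3.10.9, R 4.3.3 and edgeR 4.0.16 (for TMM factors only) were used. Coordinates are those of GENCODE M21 on GRCm38, and promoter and microRNA sequences are RefSeq's on GRCm38.p6.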

Additional observations from a re-analysis of the deposited data

Results flagged for a closer look

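Barcodes of 2000 to 15000 UMIs, which were not counted as cells, held more of 3 members in the cycloheximide libraries than in the control, beyond counting error. Malat1 had 3179 CPM there in the control (271 barcodes), 6306 CPM at 3 h (106 barcodes) and 9164 CPM at 6 h (148 barcodes). Kcnq1ot1, the imprinted silencer, had 318, 483 and 700.2 CPM in the same barcodes, and Tug1 had 57.7, 118 and 109 CPM. Neat1 and Meg3 were lower there at 6 h than in the control, without overlap of intervals. Neat1 had 38.3 CPM (27.9 to 51.2) against 63.4 CPM (51.6 to 77.0). Meg3 had 258 CPM (230 to 289) against 323 CPM (295 to 352). How many of all genes differed in these barcodes was not counted. In every library all 7 members were higher in these barcodes than in cells, by 1.23 to 4.78 times, Mirg at 6 h having the highest ratio on 22 UMIs. The barcodes differed in depth, with medians of 4597, 10026.5 and 7282.5 UMIs. In the control's barcodes of 500 to 2000 UMIs all 7 were lower than in cells, at 0 to 0.953 times. Malat1 in that range was 3.06 and 5.88 times its level in cells at 3 h and 6 h, while Neat1 and Mirg had 0 UMIs at 3 h. The median log2 ratio of the 7 other nuclear long noncoding RNAs that passed the floor was -0.089 at 3 h and 0.036 at 6 h, on opposite sides of 0 and 0.12 apart; this difference was not tested.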

How the results depend on the processing

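Each comparison had 11 other settings, of which those restricted to cells of 15000 to 30000 UMIs and to cells of 60000 UMIs or more were chosen after seeing the data. The median log2 ratio of the 7 RNAs kept its sign in all of them. At 6 h against the control it was -1.22, and it became -1.504 with TMM factors, -1.11 with UMIs per cell, -1.15 without mitochondrial limits, -1.18 without cells above 2 times the median UMIs, -1.27 with 10% free RNA subtracted, -1.04 in cells of 15000 to 30000 UMIs and -1.27 in cells of 60000 UMIs or more. At 3 h it was -0.52, and -0.69 with TMM factors, -0.25 with UMIs per cell and -0.027 in cells of 15000 to 30000 UMIs. For 6 h against 3 h it was -0.47, and -0.58, -0.63 and -0.64 under the same 3 settings. TMM factors and UMIs per cell move all genes of a library by the same amount; for the other settings the cause was not tested.

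Single RNAs turned in direction in 10 cases. Malat1 had -0.012 at 6 h and -0.10 at 3 h with TMM factors. Kcnq1ot1 had 0.019 at 6 h with UMIs per cell, and in cells of 15000 to 30000 UMIs it had 0.28 at 6 h, 0.46 at 3 h and -0.19 for 6 h against 3 h. Tug1 for 6 h against 3 h, 0.021, was below 0 in 4 settings: -0.091 with TMM factors, -0.14 with UMIs per cell, -0.034 without cells above 2 times the median UMIs and -0.22 in cells of 15000 to 30000 UMIs. No member moved across the 2-fold line in any setting. The share of all genes at least 2-fold lower at 6 h was 2.41%, 1.498% with a floor of 50 CPM and 7.002% without a floor, and at 3 h it was 0.513%, 0.272% and 6.30%. The share higher at 6 h was 8.65%, 5.58% and 28.6%, and at 3 h 4.32%, 2.76% and 17.6%. Of 84 other values of cell-to-cell variation, 27 lay outside the range of repeated thinnings, and depth limits Neat1 at 6 h and Mirg throughout. No paired analysis was possible because each group is a single library.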

Other observations

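The control library held 62 barcodes with at least 15000 UMIs and under 1% mitochondrially encoded UMIs, which were left out as cells, against 1 at 3 h and 8 at 6 h. Their median was 110694 UMIs. Malat1 had 262 CPM in them (95% Poisson interval 249.9 to 275), against 2581 CPM in the control's cells. Kcnq1ot1 had 13.5 CPM, against 226 in cells, and Meg3 had 49.1 CPM, against 238 in cells. Neat1, Tug1, Rian and Mirg had 0.166, 0.348, 0.199 and 0.310 times their level in cells. The 8 barcodes of the 6 h library had Malat1 at 3800.4 CPM (3571 to 4041), above its cells. With all these barcodes kept, the log2 ratio of Meg3 at 6 h was -1.15.

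Neat1 was seen more often in cells with more Malat1. In cells above the median of Malat1 in the control (1065 cells), Neat1 was seen in 48.7%, and in the other 1122 cells in 36.0%. At 6 h the shares were 18.7% of 1268 cells and 10.7% of 1286 cells. In the control, r with the cell's percentage of mitochondrially encoded UMIs was 0.160 for Malat1 and 0.185 for Neat1. The part of that percentage in these shares was not tested.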
